A study of Homo sapiens with 20 samples.

Results

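The cytosolic ribosomal proteins are the protein subunits of the ribosome that translates nuclear mRNAs. They were examined here in MDA-MB-231, an established line of human triple-negative breast cancer cells, after cisplatin, the copper chelator ammonium tetrathiomolybdate (TM) or both drugs. Members were chosen by name. They are the genes whose symbol starts with RPL or RPS and a digit, together with RPLP0, RPLP1, RPLP2 and RPSA, without pseudogenes, the RPS6K kinases, RPS27L, antisense and divergent transcripts and the Y-linked copies. Of 18417 genes that had an array row with a single gene symbol, 65 were members. They comprised 36 genes of the large subunit, 21 of the small subunit, 7 paralogs of subunit genes (RPL3L, RPL7L1, RPL10L, RPL22L1, RPL26L1, RPL36AL and RPL39L) and RPS19BP1. The last encodes a binding partner of RPS19 that is not itself a subunit, and it was taken because its symbol meets the rule. A further 11 ribosomal protein genes (RPL6, RPL9, RPL13A, RPL21, RPL36A, RPL37, RPL39, RPS10, RPS12, RPS18 and RPS26) were named only on rows with several symbols and are not members. RPLP0, RPSA and RPS27A were not analysed here.

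The small subunit reads the mRNA and the large subunit joins the amino acids, and each holds ribosomal RNA and a single copy of most of its proteins, so cells make the proteins in matched amounts. Most of these mRNAs start with a C followed by an unbroken stretch of C and T (U in the RNA), the 5′ terminal oligopyrimidine or TOP motif, through which the kinase mTORC1 and the RNA-binding protein LARP1 control their translation. That control acts on translation, which an array of total RNA does not measure. Unassembled ribosomal proteins, above all RPL5 and RPL11, bind the ubiquitin ligase MDM2 and so link ribosome assembly to p53. Ribosomal protein genes have many processed pseudogenes, copies of nearly the same sequence elsewhere in the genome, so which copies a row detects is uncertain for most members.

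Cells were treated with 36 µM cisplatin and 10 µM TM together (Cis/TM), with 36 µM cisplatin (Cis) or with 10 µM TM (TM), each for 24 h or 12 h, or were left as controls (Control). Expression was measured on Affymetrix Human Gene 1.0 ST arrays, with 2 arrays for TM 12 h and 3 for each of the other 6 groups, 20 in all. The 3 control arrays carry no time in their labels, which call them untreated whereas the methods describe vehicle at both times, and they served as the control of all 6 treatment groups. Comparisons against Control therefore share these arrays. Per the methods, the treatments were run in triplicate in multi-well plates. Whether the replicates came from separate experiments is not stated, so the p-values measure the spread between these arrays, whose number limits the precision. All groups are a single cell line. Its 6 mesenchymal or basal markers (VIM, CD44, AXL, CAV1, MSN and EGFR) lay between the 79.4th and 99.5th percentile of all genes. Of the 7 luminal and epithelial markers that the list has as low in this line, ESR1, PGR and CDH1 had median log2 values of 4.01, 3.57 and 3.74, whereas GATA3 (6), FOXA1 (6.35) and KRT19 (6.52) lay between the 52.8th and 61.5th percentile and EPCAM (8.33) at the 81.2nd percentile.

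Values are log2 signals as the authors normalized them. Array medians over all genes lay between 5.71 and 5.94. A gene was called higher or lower where limma's Benjamini-Hochberg adjusted p over all 18417 genes was under 0.05 and the fold change exceeded 1.5. Values are relative to the RNA on each array, so a change of an mRNA cannot be told apart from a change of total RNA per cell. Between arrays of a group the median over the members had an SD of 0.066 (the 7 groups combined), and the median SE of a difference over all genes was 0.135.

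The start sites of 53 of the 65 members were present in the RefSeq promoter table (GRCh38.p14). The windows below run 5′ to 3′ on the strand of the gene, from 10 bases before the annotated start to the 20 bases from it on. Capitals mark an unbroken run of at least 8 C and T anywhere in the window. A TOP motif is narrower, since it begins with a C at the first base of the mRNA. The genes shown are those whose values are described below: RPS15, RPS19, RPS14 and RPL18, called higher in 5 or 6 of the treatments, RPL32 with a large increase at 12 h and no such run, RPL22 and its paralog RPL22L1 with the decreases, RPS25, RPL7A and the stalk gene RPLP2.
RPS15 (chr19:1438386-1438415, plus strand): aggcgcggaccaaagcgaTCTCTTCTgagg
RPS19 (chr19:41860245-41860274, plus strand): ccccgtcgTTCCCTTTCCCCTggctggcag
RPS14 (chr5:150449720-150449749, minus strand): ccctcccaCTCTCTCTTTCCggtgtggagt
RPL18 (chr19:48619159-48619188, minus strand): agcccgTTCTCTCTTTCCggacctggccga
RPL32 (chr3:12841546-12841575, minus strand): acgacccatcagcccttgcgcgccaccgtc
RPL22 (chr1:6199576-6199605, minus strand): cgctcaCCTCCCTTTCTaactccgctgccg
RPL22L1 (chr3:170870176-170870205, minus strand): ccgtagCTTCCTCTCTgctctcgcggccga
RPS25 (chr11:119018324-119018353, minus strand): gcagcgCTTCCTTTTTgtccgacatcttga
RPL7A (chr9:133348208-133348237, plus strand): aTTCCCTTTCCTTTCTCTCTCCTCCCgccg
RPLP2 (chr11:809957-809986, plus strand): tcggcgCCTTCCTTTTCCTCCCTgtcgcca

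The runs differed in length and place among the members shown. RPS14 and RPL18 both held the letters CTCTTTC, RPL7A held an unbroken run of 25 C and T, and the window of RPL32 held no run longer than 5. On the minus strand, the span of RPL32 reaches base 12841582, beyond its window. The start used for RPL32 thus lies inside the gene, and other starts were not examined. Over the 53 members, 39 windows (73.6%) held a run of at least 8 C and T on the gene strand, against 12.7% of the 35116 promoters in the table. On the gene strand, the letters CTTTCC stood in 12 member windows (22.6%) and in 1.51% of all windows, and CTCTTTC in 7 (13.2%) and 0.498%. In the whole promoter, 250 bases before to 50 bases after the start, CCGGAA on either strand, the core bound by ETS-family factors, occurred in 29 members (54.7%) and in 17.2% of all promoters. ATGGCG on either strand occurred in 19 (35.8%) against 10.7%, and TATAAA on either strand in 6 (11.3%) against 11.5%. CTTTCC and CTCTTTC overlap each other and the C and T runs, so these counts are not independent. A match describes these letters and not a bound site.

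The first question was how each treatment differed from Control. After 12 h, many ribosomal protein transcripts were called higher than Control in all 3 treatments, with the most calls in Cis 12 h and the fewest in Cis/TM 24 h. In Cis/TM 24 h, 1 member was called higher and 1 lower (1.54% of the members each), where 4.54% of all genes were called higher and 2.48% lower. In Cis/TM 12 h, 23 members (35.4%) were called higher and 0 lower, against 15.2% and 8.55% of all genes. In Cis 24 h, 14 members (21.5%) were called higher and 0 lower, against 11.5% and 4.9% of all genes. After quantile normalization 9 members were higher in Cis 24 h, against 7.09% of all genes. In Cis 12 h, 26 members (40%) were called higher and 1 lower, against 14.8% and 10.8% of all genes. In TM 24 h, 11 members (16.9%) were called higher and 0 lower, against 5.16% and 2.55% of all genes. Without control array C 7 members were higher, a fit whose share of all genes is not given here. In TM 12 h, 16 members (24.6%) were called higher and 0 lower, against 8.99% and 3.11%. So the members' share of higher calls exceeded that of all genes in 5 of the 6 treatment groups, all but Cis/TM 24 h.

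The members' median difference from Control was 0.04 in Cis/TM 24 h (−0.02 after quantile normalization), 0.36 for Cis/TM 12 h, 0.11 for Cis 24 h, 0.46 for Cis 12 h, 0.15 for TM 24 h and 0.28 for TM 12 h on the log2 scale. These medians depended on the scaling. With median centring they were 0.01 for Cis/TM 24 h, 0.25 for Cis/TM 12 h, 0.02 for Cis 24 h, 0.31 for Cis 12 h, 0.07 for TM 24 h and 0.22 for TM 12 h. With quantile normalization those that moved by over 1.5 times, beside that of Cis/TM 24 h, were 0.21 for Cis/TM 12 h, 0.03 for Cis 24 h and 0.13 for TM 12 h, and with the trend of differences with signal level removed they were 0.05 for Cis 24 h and 0.18 for TM 12 h. The median over all genes lay between −0.05 and −0.00 in these comparisons. With median centring of each array, 22 members were called higher in Cis 12 h and 18 in Cis/TM 12 h, against 11% and 12.3% of all genes. The median over all genes moved to −0.16 in both. That scaling also lowered the share of higher calls among all called genes, to 39.7% in Cis 12 h, against 57.8% as deposited, to 54.2% against 70.1% in Cis 24 h, to 49% against 64% in Cis/TM 12 h, to 48.2% against 66.9% in TM 24 h and to 61.3% against 74.3% in TM 12 h. Both subunits held called members. In Cis 12 h, 10 of the 21 small-subunit genes and 13 of the 36 large-subunit genes were called higher, and in TM 12 h these counts were 6 and 8.

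**Figure D1:**
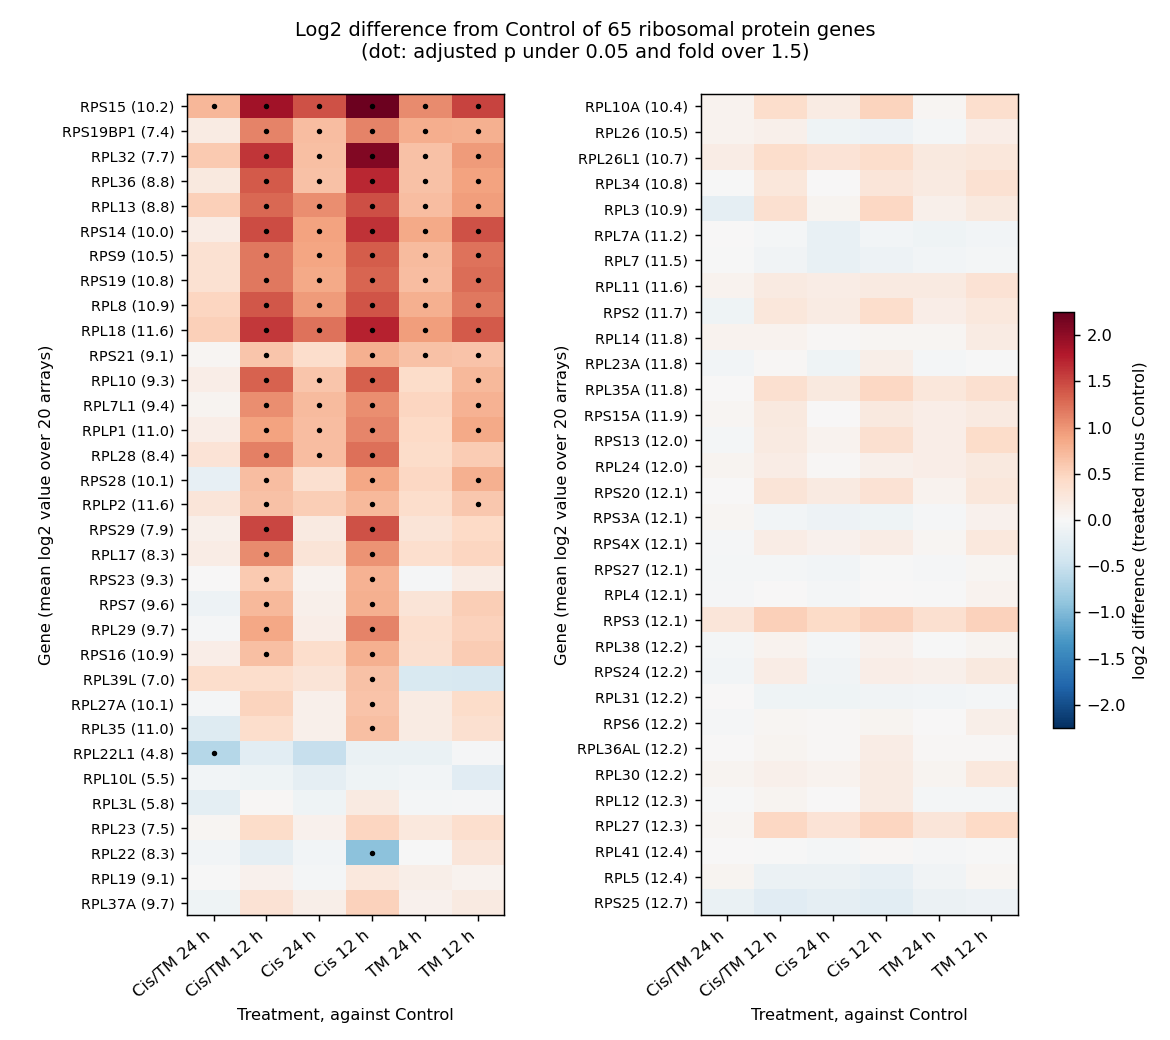
Log2 difference from Control for each of the 65 members (down the page, with the mean log2 value beside the name) in the 6 treatment groups (across), colour giving the difference and a dot marking a call (adjusted p under 0.05 and fold over 1.5). RPS15 carries a dot in all 6 columns, 37 members carry none, and the Cis/TM 24 h column holds 2 dots.

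Single members behaved very differently. RPS15 was called higher in all 6 treatments, 9 members (RPL8, RPL13, RPL18, RPL32, RPL36, RPS9, RPS14, RPS19 and RPS19BP1) in all but Cis/TM 24 h, and 26 in at least 1, while 37 were called neither higher nor lower in any. Of all genes, 1.53% were called higher in all 6 treatments and 2.43% in 5. No higher call in any of the 6 was found for 39 members and for 79.1% of all genes. Differences ran from −0.92 (RPL22) to 2.20 (RPS15) in Cis 12 h.

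RPS15, a protein of the small subunit's head needed for export of the precursor subunit from the nucleus, had log2 values of 9.62, 9.49 and 9.83 for Cis/TM 24 h and 10.97, 10.74 and 10.65 for Cis/TM 12 h. It had 10.47, 10.31 and 10.22 for Cis 24 h and 11.24, 11.27 and 10.81 for Cis 12 h. It had 10.12, 9.76 and 10.04 for TM 24 h and 10.49 and 10.34 for TM 12 h, against 8.82, 8.93 and 8.97 for Control. Every treated array lay above every control array, and within each treatment the 12 h arrays lay above the 24 h arrays. The difference from Control was 2.20 (SE 0.14, adjusted p = 3.16e-10) in Cis 12 h, a 4.61-fold increase. It was 1.88 (adjusted p = 2.44e-09) in Cis/TM 12 h, 1.43 (adjusted p = 2.08e-07) in Cis 24 h, 1.07 (adjusted p = 3.26e-05) for TM 24 h and 1.51 (adjusted p = 2.23e-06) for TM 12 h. In Cis/TM 24 h it was 0.74 (SE 0.14, adjusted p = 0.000859), the single call of a higher member there. With the mean of both RPS15 rows in place of the brighter one, it was 0.40 in Cis/TM 24 h and 0.53 for TM 24 h, and neither was called.

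RPS19 is the small-subunit gene most often mutated in Diamond-Blackfan anaemia, and RPS14 lies in a region lost in a myelodysplastic syndrome. RPS19 had 10.34, 10.24 and 10.36 for Cis/TM 24 h, 11.28, 11.12 and 11.04 for Cis/TM 12 h, 10.92, 10.83 and 10.70 for Cis 24 h, 11.30, 11.34 and 11.20 for Cis 12 h, 10.67, 10.67 and 10.65 for TM 24 h and 11.22 and 11.24 for TM 12 h, against 10.02, 9.94 and 9.93 for Control. Its groups were tight, and the treated arrays again lay wholly above the control arrays. RPS19 differed from Control by 1.32 (SE 0.09, adjusted p = 9.35e-10) in Cis 12 h and 1.27 (adjusted p = 2.39e-07) in TM 12 h, while in Cis/TM 24 h the difference of 0.35 (adjusted p = 0.0102) was under the fold minimum. RPS14 had 9.31, 9.42 and 9.09 for Cis/TM 24 h, 10.74, 10.51 and 10.47 for Cis/TM 12 h, 10.14, 10.03 and 9.86 for Cis 24 h, 10.78, 10.83 and 10.62 for Cis 12 h, 10.06, 9.89 and 9.94 for TM 24 h and 10.46 and 10.63 for TM 12 h, against 8.93, 9.23 and 9.18 for Control. The Cis/TM 24 h arrays of RPS14 overlapped the control arrays and all other treated arrays lay above them. RPS14 was higher by 1.63 (adjusted p = 1.75e-09) in Cis 12 h, 1.46 (adjusted p = 8.73e-09) for Cis/TM 12 h, and by 1.44 (adjusted p = 9e-07) for TM 12 h.

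RPS9, which with RPS2 and RPS3 helps form the mRNA entry site, was higher by 1.36 (adjusted p = 2.42e-07) in Cis 12 h and 1.22 (adjusted p = 3.2e-05) in TM 12 h. In TM 24 h it was higher by 0.71 (adjusted p = 0.00184), a call lost without control array C (0.56). RPS3 and RPS2 stayed under the fold minimum. RPS3 differed from Control by 0.52 (adjusted p = 0.000176) in Cis 12 h and RPS2 by 0.40 (adjusted p = 0.0017). RPS29, a small zinc-binding subunit, was called higher in both cisplatin groups at 12 h and in no other. Its values were 7.42, 7.39 and 7.41 for Cis/TM 24 h, 9.18, 8.10 and 9.09 for Cis/TM 12 h, 7.47, 7.47 and 7.56 for Cis 24 h, 8.26, 8.92 and 9.03 for Cis 12 h, 7.55, 7.74 and 7.48 for TM 24 h and 7.75 and 7.73 for TM 12 h, against 7.40, 6.98 and 7.50 for Control. Cis/TM 12 h B, at 8.10, lay about 1 log2 unit under the other arrays of its group and still above all control arrays. RPS29 was 2.82-fold higher in Cis/TM 12 h (adjusted p = 1.63e-05) and 2.71-fold higher in Cis 12 h (adjusted p = 2.17e-05). RPS7 (0.74 in Cis/TM 12 h and 0.80 in Cis 12 h), a subunit that also binds MDM2, and RPS16 (0.68 and 0.79) and RPS23 (0.59 and 0.78), which lie near the decoding site, were also called higher in these 2 groups and in no other treatment against Control. In TM 12 h RPS7 (0.548) and RPS16 (0.575) lay just under the fold minimum, and RPS23 differed by 0.171. None of them was called in Cis/TM 12 h against TM 12 h. The call of RPS23 in Cis/TM 12 h was lost without Cis/TM 12 h C (0.52) or control array B (0.53), and with the mean of its rows RPS7 was under the fold minimum in Cis/TM 12 h (0.45) and Cis 12 h (0.43). After median centring RPS16 (0.57) and RPS23 (0.48) were not called in Cis/TM 12 h.

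RPS25, needed for initiation at several internal ribosome entry sites, was on the other side of 0. Its values were 12.72, 12.77 and 12.75 for Cis/TM 24 h, 12.64, 12.60 and 12.69 for Cis/TM 12 h, 12.64, 12.74 and 12.71 for Cis 24 h, 12.72, 12.60 and 12.69 for Cis 12 h, 12.78, 12.77 and 12.75 for TM 24 h and 12.82 and 12.76 for TM 12 h, against 12.86, 12.93 and 12.92 for Control. All treated arrays lay below all control arrays, by small amounts. The difference of RPS25 was −0.26 (SE 0.08, adjusted p = 0.0106) in Cis/TM 12 h, −0.20 (adjusted p = 0.0465) in Cis 24 h and −0.23 (adjusted p = 0.0205) in Cis 12 h, each under the fold minimum. RPS6, the subunit phosphorylated downstream of mTORC1, differed from Control by −0.02, 0.04, 0.02, 0.05, 0.01 and 0.14 in the same order of groups and was called in none of the 6.

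In the large subunit RPL18 was called higher in 5 of the 6 treatments. Its values were 11.28, 11.10 and 10.93 for Cis/TM 24 h, 12.28, 12.05 and 12.11 for Cis/TM 12 h, 11.88, 11.87 and 11.62 for Cis 24 h, 12.34, 12.38 and 12.18 for Cis 12 h, 11.60, 11.46 and 11.46 for TM 24 h and 11.92 and 11.95 for TM 12 h, against 10.48, 10.87 and 10.33 for Control. All treated arrays lay above all control arrays. RPL18 was 3.34-fold higher in Cis 12 h, a difference of 1.74 (SE 0.13, adjusted p = 2.49e-09), and higher by 1.58 (adjusted p = 1.03e-08) for Cis/TM 12 h, and by 1.37 (adjusted p = 3.23e-06) for TM 12 h. In Cis/TM 24 h its difference of 0.54 (adjusted p = 0.00594) was under the fold minimum. RPL7A, with the longest run of C and T of the windows shown, lay between −0.17 (Cis 24 h) and 0.00 (Cis/TM 24 h) of Control in the 6 treatments and was called in none.

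RPL32, another protein of the large subunit, had 7.51, 7.46 and 6.98 for Cis/TM 24 h, 7.93, 8.61 and 8.46 for Cis/TM 12 h, 7.51, 7.42 and 7.31 for Cis 24 h, 8.84, 8.78 and 8.85 for Cis 12 h, 7.19, 7.40 and 7.57 for TM 24 h and 7.70 and 7.68 for TM 12 h, against 7.23, 6.74 and 6.23 for Control. Its control arrays spread over 1 log2 unit, the arrays of Cis/TM 24 h and TM 24 h overlapped them, and those of the other groups lay above. RPL32 was 4.25-fold higher in Cis 12 h, by 2.09 (SE 0.20, adjusted p = 6.83e-08), and by 1.60 (adjusted p = 2.45e-06) in Cis/TM 12 h. In Cis 24 h its call (0.68, adjusted p = 0.0128) was lost without control array C (0.43, adjusted p = 0.0905). In TM 24 h its call (0.65, adjusted p = 0.0272) was lost without TM 24 h B or C or control array B or C, with differences from 0.40 to 0.66.

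RPL8, whose protein lies at the peptidyl transferase centre, had 10.67, 10.64 and 10.24 for Cis/TM 24 h, 11.56, 11.32 and 11.40 for Cis/TM 12 h, 11.09, 10.98 and 10.88 for Cis 24 h, 11.38, 11.54 and 11.40 for Cis 12 h, 10.81, 10.75 and 10.93 for TM 24 h and 11.22 and 11.21 for TM 12 h, against 10.29, 10.45 and 9.36 for Control. Control array C lay about 1 log2 unit under the other control arrays of RPL8. RPL8 was higher by 1.41 (adjusted p = 4.77e-06) in Cis 12 h, and its call in TM 24 h (0.80, adjusted p = 0.00552) was lost without control array C (0.47). RPL36 was higher by 1.69 (adjusted p = 1.39e-08) in Cis 12 h and 1.38 (adjusted p = 2.3e-07) in Cis/TM 12 h. The calls of RPL36 at 24 h of Cis and of TM were lost without control array C (0.50 in both). RPL13 was higher by 1.45 (adjusted p = 3.97e-09) and RPL28 by 1.24 (adjusted p = 1.35e-08) in Cis 12 h. RPL10, which joins late at the peptidyl transferase centre, was higher by 1.33 (adjusted p = 1.73e-07) in Cis/TM 12 h and 1.35 (adjusted p = 1.08e-07) in Cis 12 h. Its calls in Cis 24 h (0.63) and TM 12 h (0.73) were lost without control array C (0.47 and 0.57), and that in Cis 24 h also without Cis 24 h A (0.58). A brighter row that names RPL10 together with other genes ended all 4 calls (0.44 for Cis/TM 12 h, 0.30 for Cis 24 h, 0.45 for Cis 12 h and 0.34 for TM 12 h), and a row naming RPL17 with a readthrough transcript gave 0.07, where the row of RPL17 alone gave 1.02. RPL35 was called higher in Cis 12 h (0.68, adjusted p = 0.000132), a call lost without Cis 12 h A (0.54).

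RPL5 and RPL11, which with the 5S ribosomal RNA bind MDM2, were called in none of the 6 comparisons. RPL5 differed from Control by 0.07 for Cis/TM 24 h, −0.12 for Cis/TM 12 h, −0.13 for Cis 24 h, −0.19 for Cis 12 h, −0.07 for TM 24 h and 0.04 for TM 12 h. RPL11 differed by 0.08, 0.19, 0.17, 0.20, 0.20 and 0.33 in the same order. RPL11 passed the adjusted p in TM 12 h (0.0165) and not in Cis 12 h (0.0585). RPL3, at the peptidyl transferase centre, differed by 0.47 (adjusted p = 0.000824) in Cis 12 h, and RPL41 by 0.02.

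The acidic stalk proteins RPLP1 and RPLP2, which recruit elongation factors to the large subunit, were called higher together in 3 groups, Cis/TM 12 h, Cis 12 h and TM 12 h. RPLP1 had 10.77, 10.57 and 10.51 for Cis/TM 24 h, 11.56, 11.24 and 11.34 for Cis/TM 12 h, 11.31, 11.16 and 11.01 for Cis 24 h, 11.70, 11.60 and 11.41 for Cis 12 h, 10.84, 10.87 and 11.03 for TM 24 h and 11.35 and 11.29 for TM 12 h, against 10.40, 10.66 and 10.34 for Control. RPLP1 overlapped Control in Cis/TM 24 h and lay above it in the other groups. RPLP1 was higher by 0.91 (adjusted p = 3.56e-06) in Cis/TM 12 h, 0.69 (adjusted p = 0.000153) in Cis 24 h, 1.10 (adjusted p = 2.8e-07) in Cis 12 h and 0.86 (adjusted p = 0.000127) in TM 12 h. RPLP2 was higher by 0.65 (adjusted p = 5.64e-06) in Cis/TM 12 h, 0.73 (adjusted p = 1.21e-06) in Cis 12 h and 0.61 (adjusted p = 0.000192) in TM 12 h, and the last call was lost without control array C (0.56). After median centring RPLP2 was under the fold minimum in all 3 (0.54, 0.58 and 0.55), and after quantile normalization in Cis/TM 12 h (0.56) and TM 12 h (0.51).

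RPL22 and RPL22L1 were the 2 members called lower than Control. RPL22, an RNA-binding subunit that is dispensable for general translation, had 8.20, 8.44 and 8.60 for Cis/TM 24 h, 8.21, 8.16 and 8.45 for Cis/TM 12 h, 8.39, 8.40 and 8.42 for Cis 24 h, 6.81, 7.88 and 7.97 for Cis 12 h, 8.28, 8.63 and 8.47 for TM 24 h and 8.67 and 8.83 for TM 12 h, against 8.51, 8.08 and 8.83 for Control. Cis 12 h A, an array that stood apart from its group over all genes, was the lowest by more than 1 log2 unit, and the other Cis 12 h arrays lay just under the lowest control array. RPL22 was 1.89-fold lower in Cis 12 h (−0.92, SE 0.23, adjusted p = 0.0023). Without Cis 12 h A the difference was −0.55 (adjusted p = 0.0143), under the fold minimum. RPL22L1, the paralog of RPL22, had a low signal throughout, with 4.35, 4.54 and 4.41 for Cis/TM 24 h and 5.05, 4.72 and 5.44 for Control. It was lower in Cis/TM 24 h (−0.64, adjusted p = 0.0174), a call lost without Cis/TM 24 h A (−0.59, adjusted p = 0.0655) or without control array C (−0.45, adjusted p = 0.0885).

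RPL39L, a paralog of RPL39 with high expression in testis, separated cisplatin from TM. It had 7.29, 7.26 and 7.30 for Cis/TM 24 h, 7.27, 7.42 and 7.15 for Cis/TM 12 h, 7.34, 7.11 and 7.02 for Cis 24 h, 7.36, 7.61 and 7.61 for Cis 12 h, 6.18, 6.65 and 6.76 for TM 24 h and 6.39 and 6.65 for TM 12 h, against 6.79, 7.17 and 6.66 for Control. The arrays of the groups that received cisplatin lay above those of the TM groups, and Control overlapped both kinds. RPL39L was higher than Control by 0.65 (adjusted p = 0.00132) in Cis 12 h, a call lost without control array C (0.55). The call was also lost after median centring (0.50), quantile normalization (0.47) and removal of the trend with level (0.39). Against Control the TM 24 h arrays of RPL39L differed by −0.35 (adjusted p = 0.111) and the TM 12 h arrays by −0.36 (adjusted p = 0.128). RPL7L1, a paralog of RPL7 that works in ribosome biogenesis, was higher by 1.05 (adjusted p = 5.15e-07) in Cis/TM 12 h, 0.72 (adjusted p = 9.57e-05) in Cis 24 h, 1.04 (adjusted p = 4.55e-07) in Cis 12 h and 0.79 (adjusted p = 0.000238) in TM 12 h. RPL3L, RPL10L, RPL26L1 and RPL36AL were called in none of the 6. RPS19BP1 was called higher in 5 of the 6, by 1.12 (adjusted p = 2.46e-07) in Cis/TM 12 h and 1.12 (adjusted p = 1.9e-07) in Cis 12 h.

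FAU, whose product is cleaved to the small-subunit protein RPS30 and which the symbol rule leaves out, is given as a further ribosomal protein. It had 8.87, 8.52 and 8.08 for Cis/TM 24 h, 9.98, 9.51 and 9.54 for Cis/TM 12 h, 9.46, 9.20 and 9.12 for Cis 24 h, 9.94, 10.35 and 9.73 for Cis 12 h, 8.78, 8.91 and 8.93 for TM 24 h and 9.61 and 9.50 for TM 12 h, against 7.79, 8.40 and 7.81 for Control. FAU overlapped Control in Cis/TM 24 h alone, and it was higher by 2.01 (adjusted p = 8.65e-08) in Cis 12 h.

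**Figure D2:**
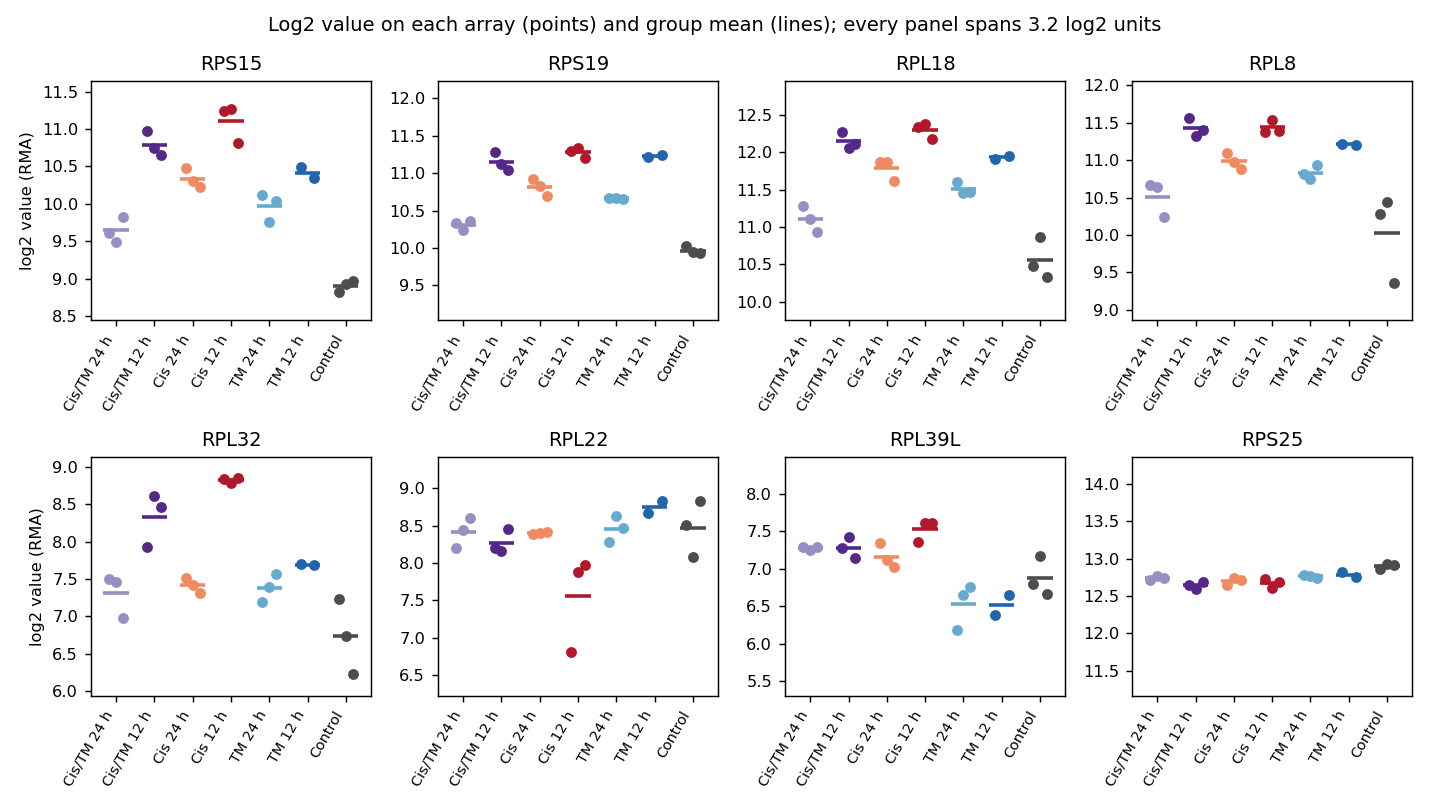
Log2 values of RPS15, RPS19, RPL18, RPL8, RPL32, RPL22, RPL39L and RPS25 on each of the 20 arrays (points) by group (across), with lines at the group means. RPS15 lies between 8.82 and 8.97 in Control and between 9.49 and 11.27 in the treated groups, RPL22 has its lowest array (6.81) in Cis 12 h, and RPS25 spans less than the other genes.

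The calls differed with the brightness of the row. Signals of different rows depend on their probes and do not rank genes by RNA amount, so the groups below sort rows by brightness. Of the 28 members with a mean of 11.5 or more, 2 were called higher in Cis 12 h, with a median difference of 0.16, and 7.84% of all genes that bright were called higher. Of the 16 members from 10 to 11.5, 10 were called higher (median 0.74, all genes 15.7%), and of the 13 from 8 to 10, also 10 (median 1.02, all genes 24.2%). Of the 8 members below 8, 4 were called higher (median 0.57, all genes 12.8%). In Cis/TM 12 h the counts were 2, 8, 10 and 3 in the same order, where 7.84%, 16.7%, 26.2% and 12.9% of all genes in these ranges were called higher. Of the 37 members called in no comparison against Control, 26 had a mean of 11.5 or more. Microarray probes compress differences near saturation, and the part of this in the members' values was not tested.

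Rows of the same gene could differ in response. The 23 members with more than 1 single-symbol row had rows whose mean log2 values differed by a median of 1.38. The brightest RPL41 row, at 12.38, differed between Cis 12 h and Control by 0.02 and its dim row, at 7.80, by 1.22, while 2 of the 3 rows of RPL41 held identical values on all 20 arrays. The rows of RPL12 gave 0.19 at a mean of 12.27 and 1.32 at 10.17, and those of RPS2 gave 0.40 at 11.74, and 1.14 and 1.15 at 10.51 and 10.47. In RPS15 the order was the other way, with 2.20 at 10.15 and 0.31 at 4.82. The sign in Cis 12 h differed between rows of 4 genes (RPL5, RPL26L1, RPL31 and RPS27).

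**Figure D3:**
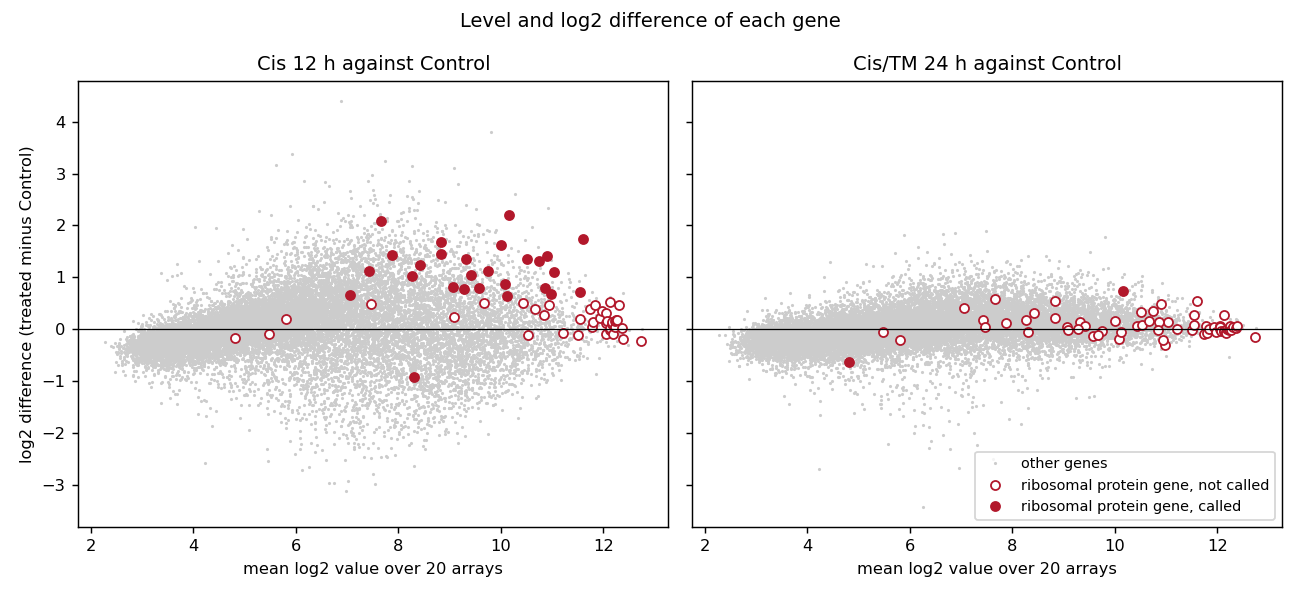
Log2 difference from Control (vertical) against the mean log2 signal of the row (horizontal) for all genes (grey) and the 65 members (coloured), in Cis 12 h and in Cis/TM 24 h. In Cis 12 h the members under 11.5 spread up to 2.20, and those from 11.5 on have a median of 0.16, with RPL18 (mean 11.60) at 1.74. In Cis/TM 24 h the members have a median of 0.04.

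The second question was how the members moved between 12 h and 24 h within a treatment. No control array carries a time, so an effect of treatment here cannot be told apart from time in culture. In Cis/TM 24 h against Cis/TM 12 h, 20 members (30.8%) fell and 0 rose, against 8.07% and 5.67% of all genes, and the median of the members was −0.32 (all genes −0.00). In Cis 24 h against Cis 12 h, 10 members (15.4%) fell and 1 rose, against 3.42% and 7.21% of all genes, with a median of −0.27 (all genes −0.04). After removal of the trend with level 18 fell, a setting whose share of all genes is not given here. In TM 24 h against TM 12 h, 0 members passed, where 0.00543% of all genes fell and 0% rose, and the median was −0.15 (all genes 0.00). With unadjusted p-values and the same fold minimum, 1 member was lower in TM 24 h. Of the 65 members, 55 had a lower mean at 24 h with Cis/TM, 61 with Cis and 59 with TM. The share of all genes with a lower mean was not counted, and the medians over all genes given above lay between −0.04 and 0.00.

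RPS29 fell by 1.38 (adjusted p = 8.39e-05) at 24 h with Cis/TM, the largest decrease of a member there, and fell by 1.23 (adjusted p = 0.000345) with Cis. RPS14 fell by 1.30 (adjusted p = 1.9e-07) with Cis/TM and fell by 0.73 (adjusted p = 0.000114) with Cis. RPS15 fell by 1.14 (adjusted p = 4.05e-06) with Cis/TM and fell by 0.78 (adjusted p = 0.000267) with Cis. RPL10 fell by 1.18 with Cis/TM and fell by 0.71 with Cis, and RPL36 fell by 1.15 with Cis/TM and fell by 1.03 with Cis. Both calls of RPL10 were lost with the brighter row that names several genes (−0.27 with Cis/TM and −0.15 with Cis), and that of RPS15 with Cis was lost with the mean of its rows (−0.52). RPL32 had the largest decrease with Cis and fell by 1.41 (adjusted p = 3.71e-05). RPL22 moved the other way and rose by 0.85 (adjusted p = 0.00915) with Cis, a call lost without Cis 12 h A (0.48, adjusted p = 0.0641). For TM, RPS19 differed by −0.56 (adjusted p = 0.0906) and RPS14 by −0.59 (adjusted p = 0.426) at 24 h. Whether the fall was steeper with one treatment than with another was not tested.

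The third question was whether the combination differed from each drug alone. In Cis/TM 12 h against Cis 12 h limma called 0 members and 0% of all genes in either direction, with a member median of −0.07, and with unadjusted p-values and the same fold minimum 1 member, RPL22, was higher (0.72, adjusted p = 0.334). At 24 h, 4 members (6.15%) were lower and 0 higher in Cis/TM than in Cis, against 1.05% and 0.456% of all genes. They were RPS14 (−0.74, adjusted p = 0.00549), RPS15 (−0.69, adjusted p = 0.0114), RPL18 (−0.68, adjusted p = 0.00936) and the paralog RPL7L1 (−0.65, adjusted p = 0.00785). The call of RPS14 held whichever array was left out, and those of the other 3 were each lost with some arrays left out. RPL18 was −0.64 without Cis 24 h A or B and −0.60 without Cis/TM 24 h C, RPS15 was −0.62 without Cis 24 h A, −0.70 without Cis 24 h B and −0.61 without Cis/TM 24 h B, and RPL7L1 was −0.59 without Cis 24 h A and −0.60 without Cis/TM 24 h C, with adjusted p between 0.0544 and 0.0777. With the mean of a gene's rows RPS15 was −0.34 (adjusted p = 0.138) and RPL7L1 −0.52, and neither was called. FAU was also lower (−0.77, adjusted p = 0.038). The median over the members was −0.12.

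Against TM, the combination at 24 h had 1 member higher and 4 lower (6.15%), where 3.53% of all genes were higher and 2.75% lower. RPL39L was higher by 0.75 (adjusted p = 0.00189), and RPS14 (−0.69, adjusted p = 0.000443), RPS28 (−0.65, adjusted p = 0.000479), RPS19BP1 (−0.63, adjusted p = 0.00104) and RPS21 (−0.63, adjusted p = 0.000372) were lower. The call of RPL39L was lost without TM 24 h A (0.57) and that of RPS21 without Cis/TM 24 h C (−0.52). At 12 h, 4 members (6.15%) were higher in Cis/TM than in TM and 0 lower, a share near the 6.61% of all genes (6.98% lower). After median centring 2 were higher, where 5.53% of all genes were. The 4 members called as deposited were RPS29 (1.05, adjusted p = 0.00354), RPL39L (0.76, adjusted p = 0.00215), RPL32 (0.64, adjusted p = 0.0479) and RPL10 (0.59, adjusted p = 0.00642). Without TM 12 h A the calls of RPL10 (0.57), RPL32 (0.65) and RPL39L (0.63) were lost. RPL32 was also lost without TM 12 h B (0.63), Cis/TM 12 h B (0.50) or Cis/TM 12 h C (0.58), and RPL10 without Cis/TM 12 h A (0.48) or with its row of several symbols (0.10).

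Cisplatin and TM were also set against each other. In Cis 12 h against TM 12 h, 9 members (13.8%) were higher and 1 lower, against 6.9% and 10.3% of all genes. After median centring 5 were higher, where 5.11% of all genes were. RPL32 (1.13, adjusted p = 0.000669), RPL39L (1.01, adjusted p = 0.000104) and RPS29 (1.99-fold, adjusted p = 0.00436) had the largest increases, and RPL22 was lower (−1.19, adjusted p = 0.0011). The calls of RPS23 (without Cis 12 h A, Cis 12 h C or TM 12 h B, 0.56 each), RPL29 (without Cis 12 h A, 0.53, or TM 12 h A, 0.56), RPL10 (without Cis 12 h B, 0.55, or with its row of several symbols, 0.11) and RPL28 (without TM 12 h A, 0.56) were lost. With the mean of a gene's rows, RPS15 (0.40) and RPL29 (0.40) were not called. In Cis 24 h against TM 24 h, RPL39L was the 1 member higher (0.63, adjusted p = 0.00545) and 0 were lower, where 5.32% and 3.23% of all genes were. This call was lost without Cis 24 h A (0.54) or TM 24 h A (0.45), an array that stood apart over all genes. Quantile normalization (0.55) and removal of the trend with level (0.49) also ended this call. RPL39L was thus higher in each of the 4 comparisons of a cisplatin group with the TM group of the same time, comparisons that share the TM arrays.

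**Figure D4:**
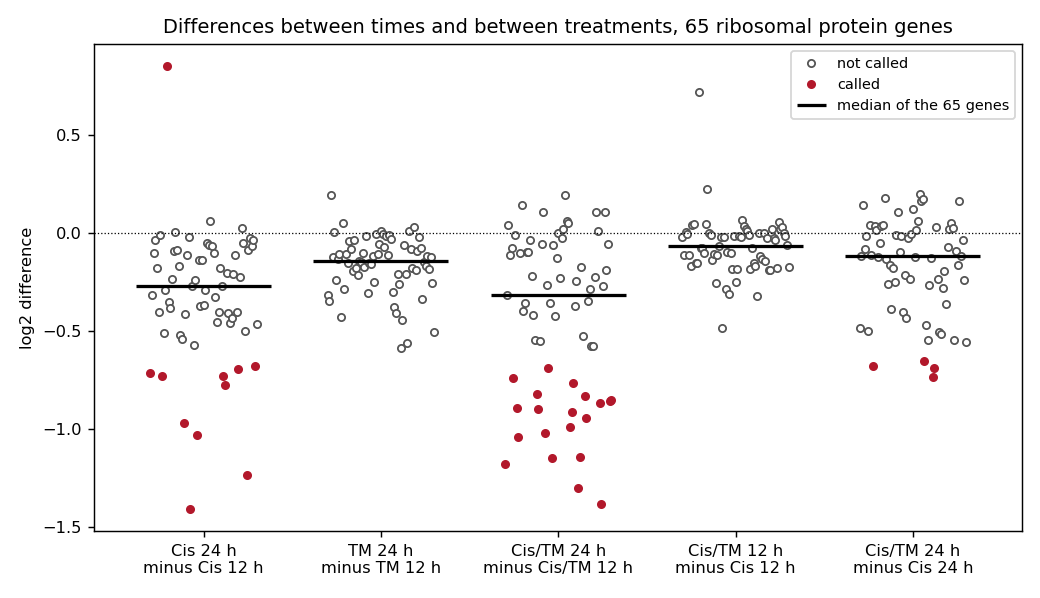
Log2 differences of the 65 members (points) between 24 h and 12 h within Cis, TM and Cis/TM, and between Cis/TM and Cis at 12 h and at 24 h, with a line at each median. The medians are −0.27, −0.15, −0.32, −0.07 and −0.12, and the widest spreads are those of Cis and Cis/TM between the times.

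The start-site letters were set beside the calls. Of the 53 members with a window, 23 were called higher in Cis 12 h and 30 were not. A run of at least 8 C and T stood in 16 of the 23 (69.6%) and in 23 of the 30 (76.7%). CTCTTTC, as in RPS14 and RPL18 above, stood in 6 of the 23 (26.1%) and in 1 of the 30 (3.33%). This motif was one of several searched, and the difference is a description. The whole promoters had a median GC content of 62.3% in the members called higher and 57.5% in the others, against 58.7% over all promoters. The 8 members on chromosome 19 (RPL18, RPL28, RPL36, RPS9, RPS15, RPS16, RPS19 and RPS28) were called higher without exception in Cis/TM 12 h and Cis 12 h, where 21.2% and 22.5% of all chromosome 19 genes were, 6 of the 8 in Cis 24 h and TM 12 h (19% and 13.6% of all chromosome 19 genes), 5 for TM 24 h (8.79%) and 1 for Cis/TM 24 h (5.73%). Of the 6 members on chromosome 17, 0 were called higher in any of the 6 treatment groups, where 6.65% to 21.6% of all chromosome 17 genes were. Of the 4 members on chromosome 1, 0 were called higher in any group, where 5.25% to 16.6% of all its genes were. In Cis 12 h, 3 of 7 on chromosome 3 and 2 of 5 on chromosome 11 were called higher (13.4% and 14.9% of all genes there). Other chromosomes were not counted. Bright rows lay on chromosome 17 (RPL23A 11.81, RPL27 12.31, RPL38 12.16) and on 19 (RPL18 11.60), and the part of brightness was not tested.

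Genes that work with the ribosomal proteins were counted from lists drawn up with earlier results of these data known, and the shares of all genes called in each comparison are those given above. Of 73 mitochondrial ribosomal proteins, nuclear-coded subunits of the ribosome that translates mitochondrial mRNAs, the number called higher was 3 for Cis/TM 24 h, 44 for Cis/TM 12 h, 19 for Cis 24 h, 44 for Cis 12 h, 16 for TM 24 h and 34 for TM 12 h. Their median difference was 0.73 in Cis 12 h, where that of the cytosolic members was 0.46. Of 50 ribosome biogenesis factors 0, 23, 15, 22, 19 and 20 were higher and 1, 2, 2, 4, 0 and 0 lower in the same order of groups. Among them NOB1, the nuclease that finishes the small-subunit RNA, was higher by 1.74 (adjusted p = 3.38e-09) in Cis 12 h, RRP9, a protein of the U3 particle, by 1.82 (adjusted p = 3.28e-09) and EIF6, which keeps the subunits apart, by 1.41 (adjusted p = 2.54e-09), whereas the helicase DDX10 was lower (−1.73, adjusted p = 1.99e-10). Of 22 translation factors with TOP mRNAs 0, 7, 4, 7, 3 and 7 were higher, among them EEF1D (1.42), EIF3G (1.17) and EEF2 (0.95) in Cis 12 h.

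Of 13 chaperones and importers of ribosomal proteins 0, 2, 2, 3, 3 and 5 were higher, among them the RPS26 chaperone TSR2 (1.36, adjusted p = 4.87e-08) and the importer IPO4 (1.20, adjusted p = 2.4e-06) in Cis 12 h, while the importer IPO7 was lower there (−0.82, adjusted p = 1.63e-06). Of 14 genes of mTORC1 and LARP1 control 0, 3, 3, 2, 1 and 4 were higher and 0, 2, 0, 2, 0 and 0 lower. In Cis 12 h 14.3% of them were higher, near the 14.8% of all genes. MTOR, the kinase itself, was lower in Cis/TM 12 h (−0.79, adjusted p = 9.23e-05) and in Cis 12 h (−1.17, adjusted p = 6.88e-07), and LARP1 differed by −0.37 (adjusted p = 0.00259) in Cis 12 h. Of 7 measured genes of the MDM2 and p53 arm 1, 1, 1, 1, 0 and 1 were higher. The p53 target CDKN1A was that gene, with a difference of 1.26 (adjusted p = 5.9e-06) in Cis/TM 24 h and 2.20 (adjusted p = 4.4e-10) in Cis 12 h, MDM4 was lower in Cis 12 h (−1.09, adjusted p = 1.08e-07), and MDM2 differed by −0.14 (adjusted p = 0.402). MDA-MB-231 carries a mutant p53. Of 16 genes of ribosome quality control 1, 6, 6, 6, 2 and 3 were higher and 0, 3, 1, 4, 0 and 0 lower. In Cis 12 h RNF25 (1.97, adjusted p = 2.49e-09), a ligase that acts at stalled ribosomes, was above Control. The helicase ASCC3 (−1.51, adjusted p = 3.36e-09) and the ribotoxic stress kinase MAP3K20 (−1.22, adjusted p = 4.72e-09) were below Control there.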

How the data were processed

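RNA of MDA-MB-231 cells in 7 groups was measured on 20 arrays. The authors made 1 log2 value per row from the probe intensities with RMA (background correction, quantile normalization and summary, the affy package per the methods, its version not given in the sources used here) and the deposited log2 values were used unchanged. RMA shrinks differences between dim rows, and the files carry no background measure per row. For the RNA extraction the labels give Trizol and the methods an RNeasy kit. Of 33297 rows, 21214 had a gene symbol in the platform table, 19460 a single one, 1754 several and 12083 none. Each of 18417 genes was represented by its single-symbol row with the highest mean.

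One linear model with 7 groups was fitted with limma 3.58.1 in R 4.3.3 (lmFit, contrasts.fit and eBayes, 13 residual degrees of freedom) and 15 comparisons were drawn from it. Within a comparison, the Benjamini-Hochberg adjustment ran over all genes. The methods' own criteria were a fold change over 1.5 and P under 0.05. The procedure was tested on simulated data. Named members are the called ones with the smallest p in each comparison, the brightest and dimmest, members with a known role and paralog pairs, and others were named after their values were seen. The members and gene lists were chosen with earlier results of these data known. Promoter windows and gene positions are from RefSeq on GRCh38.p14. The alternatives were 3 further normalizations, filters on dim rows, other choices of row, fold minimum, p-value, variance prior and arrays in the fit, the replicate letter as a block, and leaving out each array in turn.

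The letters of the replicates were not treated as pairs in the main fit. Over 57 pairs of arrays that share a letter across groups, the deviations from the group means correlated across genes with a median of 0.008 (from −0.42 to 0.61), and 19 pairs exceeded 0.1. Over 114 pairs with different letters the median was 0.004 (from −0.49 to 0.46), and 34 pairs exceeded 0.1. These correlations cannot show whether arrays of a letter shared a plate or batch.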

Additional observations from a re-analysis of the deposited data

Results flagged for a closer look

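The results here are those in which the test of 2 treatments, or of 2 times, against each other passed. Their differences from the shared control arrays therefore differed. Between 2 times, treatment cannot be told apart from time in culture, because no control array carries a time. Groups of 2 or 3 arrays are too small for the test of a single outlying array. Further limits with single arrays left out are given above with each comparison.

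Between 24 h and 12 h of Cis/TM, 20 members fell, RPS19BP1 among them. RPS14 differed by −1.30, RPL10 by −1.18, RPS7 by −0.86 and RPS19 by −0.83 on the log2 scale. RPL10 was not called with its row of several symbols (−0.27), nor RPS7 with the mean of its rows (−0.56). Between 24 h and 12 h of Cis, 10 fell and 1 rose. RPL36 differed by −1.03, RPL29 by −0.97, RPS23 by −0.69 and RPS7 by −0.68 (−0.40 with the mean of its rows, not called), and the gene that rose was RPL22 (0.85), which lost its call without Cis 12 h A (0.48).

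Between Cis/TM 24 h and Cis 24 h, 4 members were lower. They were RPS14 (−0.74), RPS15 (−0.69), RPL18 (−0.68) and RPL7L1 (−0.65), and of these the call of RPS14 alone held whichever array was left out. With the mean of a gene's rows RPS15 (−0.34) and RPL7L1 (−0.52) were not called. Between Cis/TM 24 h and TM 24 h, 1 member was higher, RPL39L (0.75), and 4 were lower, RPS14 (−0.69), RPS28 (−0.65), RPS19BP1 (−0.63) and RPS21 (−0.63). RPL39L was not called without TM 24 h A (0.57), nor RPS21 without Cis/TM 24 h C (−0.52).

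Between Cis/TM 12 h and TM 12 h, 4 members were higher, RPS29 (1.05), RPL39L (0.76), RPL32 (0.64) and RPL10 (0.59, or 0.10 with its row of several symbols and not called). Between Cis 12 h and TM 12 h, 9 were higher, among them RPL32 (1.13), RPL39L (1.01), RPL28 (0.67) and RPS23 (0.61), and 1 was lower, RPL22 (−1.19). RPS23 was not called without Cis 12 h A or Cis 12 h C (0.56 each), nor RPL28 after median centring (0.58). Between Cis 24 h and TM 24 h, 1 was higher, RPL39L (0.63), which was not called without Cis 24 h A (0.54) or TM 24 h A (0.45). Cis/TM 12 h and Cis 12 h share the TM 12 h arrays in these comparisons, as the 24 h groups share those of TM 24 h.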

How the results depend on the processing

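Of 148 single-gene calls, 148 kept their direction and their side of the threshold with the replicate block, with an intensity trend in the variance prior and without the dimmest 25% of genes. Calls lost were 21 with median centring, 23 with quantile normalization, 18 with the trend with level removed, 12 with the mean of a gene's rows, 12 with rows of several symbols, 7 with a fit of the 2 groups alone and 47 over all fits that left out 1 array, where 811 were kept. None of these reversed a call. The replicate block called 26 members higher in Cis 12 h, as did the fit without it, and 5 against 4 in Cis/TM 12 h against TM 12 h. The cause of the changes below was not tested, except that a level minimum tests fewer genes and a dropped fold minimum admits more. Counts below without the share of all genes at the same setting show how a count moved, not how the members compare with other genes.

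With genes of a mean of at least 10 alone (44 of the 65 members), members higher than Control were 10 for Cis/TM 12 h, 7 for Cis 24 h, 12 for Cis 12 h, 6 for TM 24 h and 9 for TM 12 h, and 0 were lower in Cis/TM 24 h and Cis 12 h. Between treatments, Cis/TM 24 h against TM 24 h gave 0 higher and 2 lower members, 0 higher in Cis/TM 12 h against TM 12 h and in Cis 24 h against TM 24 h, and 1 higher and 0 lower in Cis 12 h against TM 12 h. Between times 9 were lower with Cis/TM, 2 lower and 0 higher with Cis and 1 lower with TM. With no fold minimum, members higher than Control were 6 for Cis/TM 24 h, 37 for Cis/TM 12 h, 22 for Cis 24 h, 24 for TM 24 h and 30 for TM 12 h, and lower 1 in Cis/TM 12 h, 2 in Cis 24 h and 2 in Cis 12 h. Then 11 were lower in Cis/TM 24 h against Cis 24 h and 10 against TM 24 h, 8 higher in Cis/TM 12 h against TM 12 h, 2 higher in Cis 24 h against TM 24 h, and lower at 24 h were 35 with Cis/TM and 29 with Cis. Median centring left 1 member lower in Cis 24 h against Control (7.38% of all genes). It left 2 higher in Cis/TM 12 h (5.53% of all genes) and 5 higher in Cis 12 h (5.11%) against TM 12 h. Quantile normalization gave 9 higher in Cis 24 h (7.09% of all genes) and 7 in TM 24 h (3.26%). It gave 0 lower in Cis/TM 24 h (2.7% of all genes) and 0 higher in Cis 24 h against TM 24 h (4%). After removal of the trend with level, 8 were higher in Cis 24 h (6.46% of all genes) and 0 lower in Cis/TM 24 h. At that setting 0 were higher in Cis 24 h than in TM 24 h and 18 lower in Cis 24 h against Cis 12 h. The mean of a gene's rows gave 0 higher in Cis/TM 24 h, and the fit of the 2 groups alone 0 lower there. Unadjusted p-values gave 1 higher in Cis/TM 12 h against Cis 12 h and 1 lower in TM 24 h against TM 12 h. The members' median turned to −0.02 in Cis/TM 24 h against Control (quantile normalization and trend removed) and to −0.03 in Cis/TM 12 h against TM 12 h (median centring).

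Leaving out each array in turn, members higher than Control ranged from 1 to 4 in Cis/TM 24 h (4 without control array B, 3 without control array A or Cis/TM 24 h C, 2 without Cis/TM 24 h B), 22 to 24 in Cis/TM 12 h, 11 to 15 in Cis 24 h, 26 to 27 in Cis 12 h, 7 to 11 in TM 24 h and 14 to 20 in TM 12 h. Those lower ranged from 0 to 1 in Cis/TM 24 h (0 without Cis/TM 24 h A or control array C), 0 to 1 in Cis 24 h (1 without control array B) and 0 to 1 in Cis 12 h (0 without Cis 12 h A). In Cis/TM 24 h against Cis 24 h 1 to 7 were lower (1 without Cis 24 h A, 2 without Cis 24 h B or Cis/TM 24 h C, 7 without Cis/TM 24 h A), and against TM 24 h 3 to 4, with 0 to 1 higher (0 without TM 24 h A). In Cis/TM 12 h against TM 12 h 2 to 4 were higher (2 without TM 12 h A), in Cis 12 h against TM 12 h 7 to 8 were higher and 1 to 1 lower, and in Cis 24 h against TM 24 h 0 to 1 (0 without Cis 24 h A or TM 24 h A). At 24 h 10 to 13 were lower with Cis, with 0 to 1 higher (0 without Cis 12 h A), and 20 to 22 lower with Cis/TM. Where TM 12 h kept 1 array, it was assumed to vary like the other groups. Few arrays, dim signals without a background measure and signals near the top of the range limit the precision.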
